A study of Homo sapiens with 6 samples.

Results

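The genes described here encode the nuclear transport receptors, called karyopherins, and the proteins of the Ran cycle that drive them. They were chosen by name: 7 exportins, 6 importin alphas, 11 import receptors of the importin beta family, 7 Ran cycle proteins and the cargo adaptor SNUPN. A gene was kept when it exceeded a CPM (its count scaled to the size of the library) of 1 in at least 3 libraries. All 32 listed genes passed, among 16974 genes of the table that did so, and each of the 32 exceeded 1 CPM in 6 of 6 libraries. For CPM values printed below, library size was taken over the kept genes and multiplied by a scaling factor (TMM). This factor ran from 0.973 to 1.02 between libraries.

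Total RNA depleted of ribosomal RNA was sequenced in 6 libraries of DLD-1, an epithelial line from a human colorectal adenocarcinoma. In all of them both TPR alleles carried an auxin-inducible degron (AID) and the fluorescent protein NeonGreen, and the RCC1 locus carried the ligase subunit TIR1 with an infra-red fluorescent protein. TPR is a nucleoporin of the nuclear basket, and TIR1 with auxin marks the AID-tagged protein for destruction. The LMB group (3 libraries) received 200 nM Leptomycin B for 3 h, and the LMB+auxin group (3 libraries) received the same with 1 mM auxin added 1 h into it, for 2 h. These times are those of the incubation label and the study's methods, while the sample titles name 2 h for both groups. Leptomycin B blocks CRM1, the protein that XPO1 encodes, so this block was common to both groups. The comparison is of RNA abundance with and without auxin, added to deplete TPR, while CRM1 was blocked. All libraries came from AID-tagged cells, so an effect of auxin itself cannot be told apart from that of TPR loss. No library without Leptomycin B was analysed here, so its own effect on these genes was not measured. The cells were edited clones genotyped by PCR, and the number of clones behind the libraries was not given in the sources used here.

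Karyopherins carry proteins and RNAs through the nuclear pore. Importins bind cargo in the cytoplasm and release it when Ran loaded with GTP binds them in the nucleus, whereas exportins bind cargo together with Ran-GTP and release both once the GTP is hydrolysed in the cytoplasm. RCC1, a chromatin-bound exchange factor, loads Ran with GTP in the nucleus. RANGAP1, the GTPase-activating protein, works outside it. NUTF2 brings Ran back into the nucleus. TPR sits at the nuclear face of the pore, where export complexes assemble and import complexes come apart.

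Upstream sequences are shown for the members that varied with replicate number and whose 250 bases before the start, in the RefSeq promoter table for GRCh38.p14, hold no annotated exon and end where the GENCODE gene begins. RefSeq promoters were matched for 27 of the 32 genes, 17 of which varied with replicate number, and 4 met these conditions. Capitals mark 4 short motifs searched on both strands: the CCAAT box (CCAAT), the GC box (GGGCGG), the E box (CACGTG) and the TATA box (TATAAA).
XPO6, chr16:28211966-28212215, minus strand: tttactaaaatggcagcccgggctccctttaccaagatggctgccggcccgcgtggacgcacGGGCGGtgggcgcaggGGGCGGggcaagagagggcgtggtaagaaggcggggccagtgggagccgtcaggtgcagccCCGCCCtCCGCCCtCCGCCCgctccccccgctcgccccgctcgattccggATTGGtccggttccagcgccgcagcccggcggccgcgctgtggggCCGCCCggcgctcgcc
XPOT, chr12:64404142-64404391, plus strand: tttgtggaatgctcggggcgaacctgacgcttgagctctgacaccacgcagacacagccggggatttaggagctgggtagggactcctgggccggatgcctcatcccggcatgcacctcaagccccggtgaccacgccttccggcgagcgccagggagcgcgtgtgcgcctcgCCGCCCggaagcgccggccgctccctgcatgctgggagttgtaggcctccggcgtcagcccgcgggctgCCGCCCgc
KPNA6, chr1:32107806-32108055, plus strand: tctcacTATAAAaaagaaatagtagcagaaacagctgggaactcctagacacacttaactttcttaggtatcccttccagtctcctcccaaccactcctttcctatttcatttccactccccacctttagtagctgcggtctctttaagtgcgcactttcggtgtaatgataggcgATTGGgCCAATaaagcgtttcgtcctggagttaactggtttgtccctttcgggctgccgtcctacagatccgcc
IPO7, chr11:9384402-9384651, plus strand: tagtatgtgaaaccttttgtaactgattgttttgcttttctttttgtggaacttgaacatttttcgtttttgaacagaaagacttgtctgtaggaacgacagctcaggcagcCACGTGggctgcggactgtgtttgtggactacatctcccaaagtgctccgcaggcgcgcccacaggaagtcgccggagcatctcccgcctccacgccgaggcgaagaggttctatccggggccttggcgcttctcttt
The 4 windows were unlike in these motifs. The XPO6 window held 6 GC boxes and 1 CCAAT box, and that of XPOT held 2 GC boxes and none of the other 3 motifs. The KPNA6 window held 2 CCAAT boxes on opposite strands, 64 (plus) and 70 (minus) bases before the start, with 1 TATA box far upstream, at 239 bases. The IPO7 window held 1 E box, 133 bases before the start. Among the 27 members with a promoter, 12 held a CCAAT box (33% of 27305 promoters searched), 19 a GC box (42.3%), 5 an E box (6.5%) and 2 a TATA box (11.1%). A match describes letters in the window and was not tested as a site.

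Libraries held between 28261903 and 35992425 counts in genes. Members took between 0.81% and 1% of them. The tagged gene was read first. Auxin acts on TPR protein, so its RNA checks the culture but not the depletion. TPR RNA stood at 163, 157 and 180 CPM in LMB and at 192, 185 and 187 CPM in LMB+auxin, so the groups did not overlap. The log2 fold change was 0.17 ± 0.071 (SE), with an adjusted p of 0.954 by edgeR's quasi-likelihood test and 0.0136 when the replicate number was fitted as a block. DESeq2 with the block gave 0.0988 (adjusted p). At 1.13-fold the change was short of the 1.3-fold set for a call below. With the block, 4.36% of all genes had an adjusted p under 0.05 by edgeR. Groups did not overlap for 11.5% of all genes. Of 8 markers of colon epithelium 7 were above the CPM filter, the exception being LGALS4, and their summed level was 7527 to 7576 CPM in LMB and 7342 to 7945 CPM in LMB+auxin. None of 5 fibroblast and none of 5 blood markers passed the filter. Their sums were at most 1.2 and 1.01 CPM in any library, and HBB was at 0 in all 6. In bulk RNA, fewer cells holding a transcript and less of it per cell cannot be told apart.

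Libraries of replicate 2 stood apart in many of these genes. Summed over the 32 members, RNA was lowest in replicate 2 of both groups: 9169, 8237 and 9387 CPM in LMB replicates 1, 2 and 3, and 9821, 8537 and 9510 CPM in the LMB+auxin libraries of the same numbers. This sum weighs abundant genes most. Replicate 2 was lowest in both groups for 18 of 32 members (28.7% of all genes) and highest in both for 3 (26.9%). In the plot of members by library, replicate 2 is blue on both sides for many genes but not for all.

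**Figure D1:**
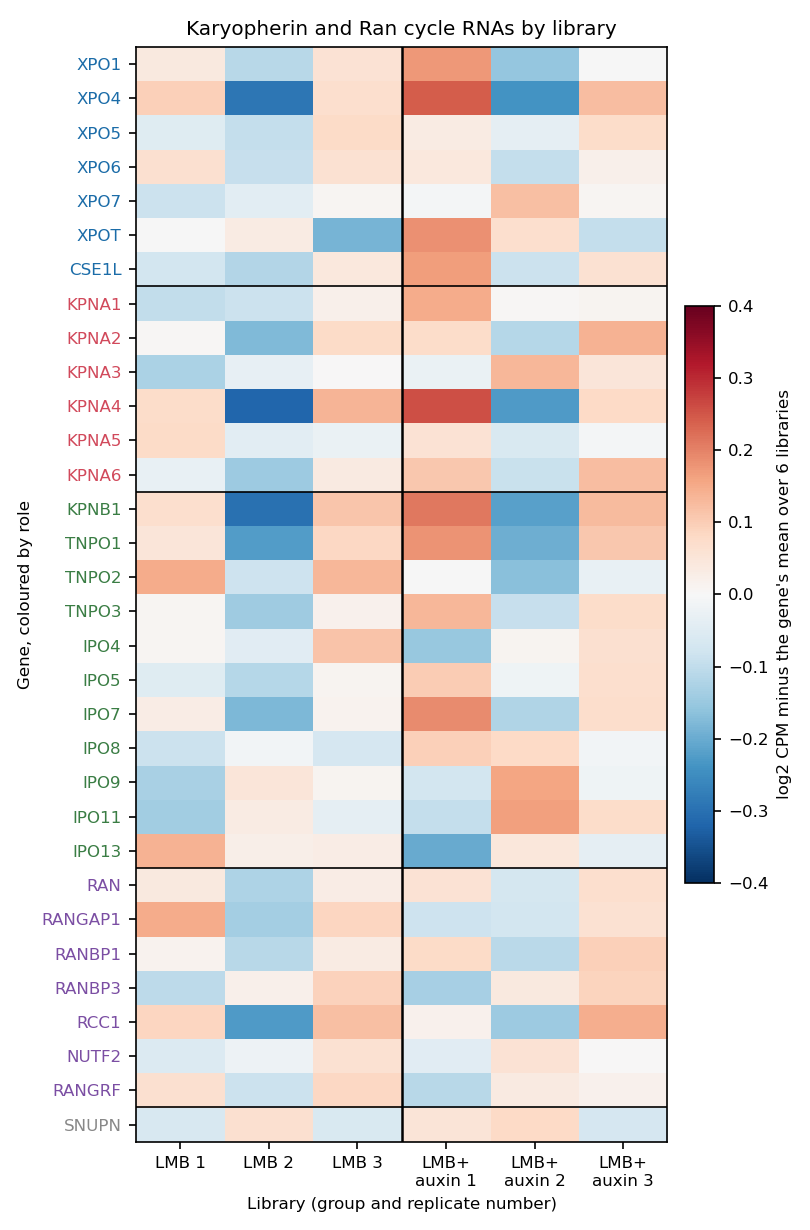
Heat map of log2 CPM of each of the 32 genes minus the gene's mean over the 6 libraries, with genes in rows (names coloured by role, lines between roles) and libraries in columns (LMB left, LMB+auxin right of the vertical line). Replicate 2 was the lowest of its group in both groups for 18 of the 32 genes (28.7% of all genes). KPNA4, XPO4 and KPNB1 are the deepest blue there.

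Auxin added to deplete TPR under CRM1 block was not accompanied by a called change in any karyopherin or Ran cycle gene. With a call set at an adjusted p under 0.05 and a change of at least 1.3-fold, edgeR called 0 of 32 members (0.00589% of all genes tested, 1 gene) and 0 with the block (1.18% of all genes). At an unadjusted p under 0.05 the fit without the block held 0 members, against 4.37% of all genes. DESeq2 and limma-voom also held 0 members, against 3.1% and 4.44% of all genes. They called 0 members, where all genes called numbered 11 and 1. The fit with the block held 10 members at that p, against 19.9% of all genes, and DESeq2 with the block held 6, against 7.92% of all genes in that fit. Of the 10, 8 were higher in LMB+auxin (8.1% of all genes) and 2 lower (11.8%). The 6 by DESeq2 with the block were all higher, with 0 lower. They included KPNB1 but not KPNA1, KPNA3, IPO8, TNPO2 or IPO13. The lowest adjusted p of a member was 0.162, for IPO5 with the block.

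Changes that were estimated were small. Log2 fold changes of members ran from -0.13 (TNPO2) to 0.11 (IPO8), and 25 of 32 lay within 0.1 of 0, against 59.1% of all genes. Their median was 0.055, beside -0.0027 over all genes, with 24 positive and 8 negative values (49.2% of all genes were positive). This median was 0.0074 without LMB replicate 2, 0.024 without LMB+auxin replicate 1 and 0.084 without LMB replicate 3. Without both libraries of number 2, with the block, it was 0.064. The 95% interval of the fold change lay within 1.3-fold either way for 30 of 32 members without the block (57.1% of all genes) and for 32 of 32 with it (75.6%). XPO4 and KPNA4 were the 2 exceptions, each with an upper bound of 1.31-fold.

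**Figure D2:**
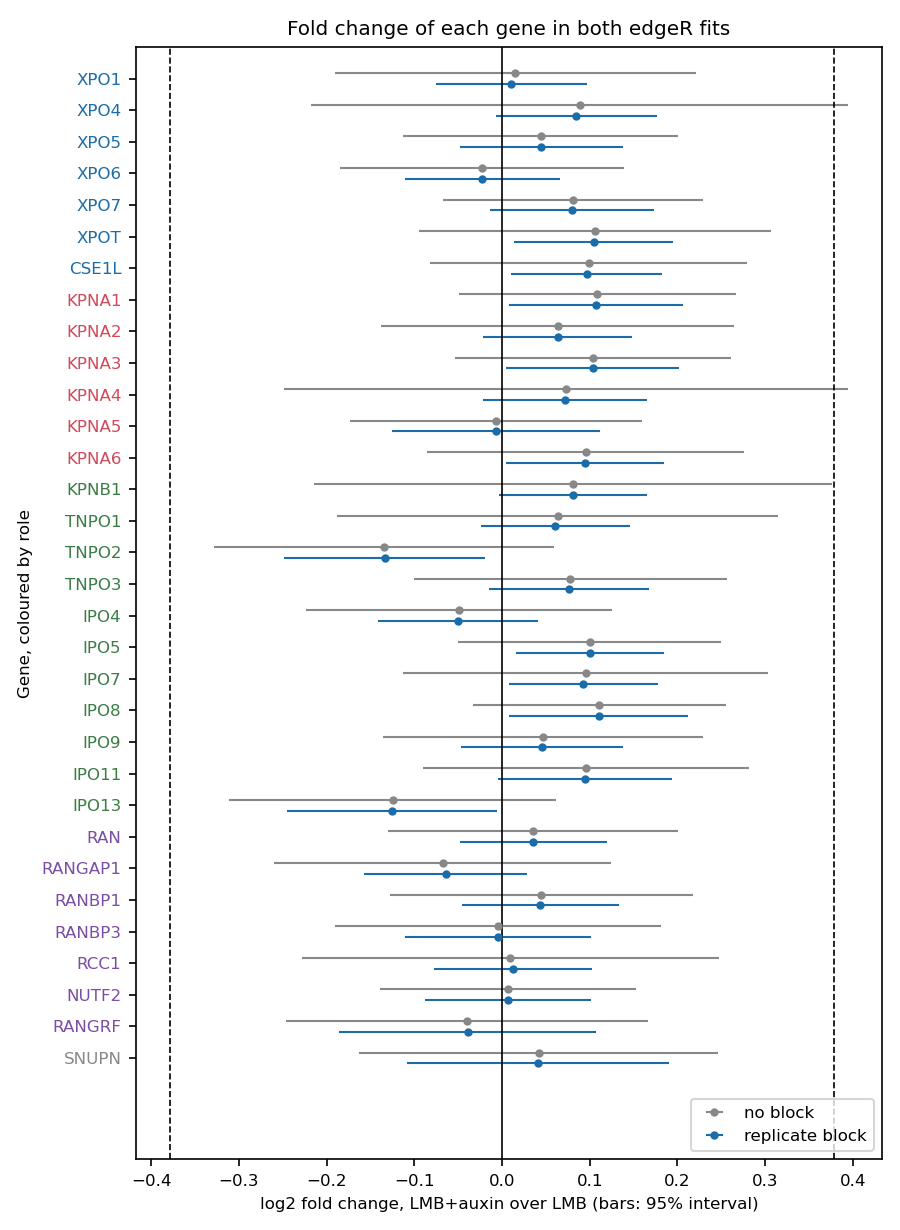
Log2 fold change of LMB+auxin over LMB for each gene (points) with its 95% interval (bars), from edgeR without (grey) and with (blue) the replicate block. Dashed lines mark 1.3-fold either way and the solid line marks no change. All 32 blue intervals lie between the dashed lines, and 10 of them do not cross the solid line.

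Agreement across same-numbered libraries was read next. LMB+auxin was higher in 3 of 3 pairs for 15 members, where 21.4% of all genes were, and lower in 3 of 3 pairs for XPO6 and TNPO2, where 20.5% were. Groups did not overlap for 1 member, IPO8, against 11.5% of all genes. All of these counts use the same 6 libraries, and members are not replicates of one another.

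Exportins take proteins and RNAs out of the nucleus, and 6 of the 7 had positive estimates. XPO1, the exporter of proteins with leucine-rich signals and the target of Leptomycin B, stood at 976, 878 and 987 CPM in LMB and at 1071, 852 and 949 CPM in LMB+auxin. The highest and the lowest of the 6 values were both LMB+auxin libraries, so the groups overlapped fully. Its log2 fold change was 0.02 ± 0.092 (SE; adjusted p = 0.991 by edgeR), and the 95% interval ran from 0.876-fold to 1.17-fold. With the block the interval narrowed to between 0.949-fold and 1.07-fold.

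CSE1L returns importin alphas to the cytoplasm. It stood at 567, 550 and 614 CPM in LMB and at 670, 562 and 622 CPM in LMB+auxin, with a log2 fold change of 0.1 ± 0.044 (SE) in the fit with the block (unadjusted p = 0.0293, adjusted p = 0.192 by edgeR). Replicate 1 carried the widest gap between the groups, and the other two pairs were nearly level. XPOT exports transfer RNAs. Its values were 189, 194 and 166 CPM in LMB and 215, 198 and 177 CPM in LMB+auxin, higher in each pair, and the block gave a log2 fold change of 0.1 ± 0.046 (SE; unadjusted p = 0.0244, adjusted p = 0.177 by edgeR). Both XPOT groups had their lowest value in replicate 3. Neither CSE1L nor XPOT passed the unadjusted threshold without the block, with p of 0.251 and 0.264 by edgeR.

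The other 4 exportins did not pass either unadjusted test. XPO5, which exports microRNA precursors, had a log2 fold change of 0.04, and XPO7, a broad-range receptor, one of 0.08. XPO6, the exporter of actin with profilin, had a value of -0.02, and XPO4, a carrier of factors such as SMAD3, one of 0.09. XPO4 was among the members that varied most: it stood at 174, 134 and 171 CPM in LMB and at 193, 138 and 178 CPM in LMB+auxin. Its drop in replicate 2 was larger than any gap between same-numbered libraries of the 2 groups. As a share of exportin RNA per transcript length, XPO1 made up 36.7% ± 1.19 (SD, n = 3) in LMB+auxin and 37.7% ± 0.717 (SD, n = 3) in LMB with canonical transcripts. Over all annotated exons, an alternative chosen after the values were seen, its share was 12.7% and 13.2%, and that of CSE1L was 51.4% and 50.4%, so which exportin led depended on the length used.

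Importin alphas bind the classical nuclear localization signal and hand the cargo to importin beta. KPNA1 stood at 89.7, 90.5 and 97.4 CPM in LMB and at 106, 96.2 and 96.6 CPM in LMB+auxin. Only replicate 1 of LMB+auxin was above all of the LMB values. KPNA3 stood at 80.1, 85.5 and 87.5 CPM in LMB and at 85.9, 95.9 and 90.3 CPM in LMB+auxin, higher in each pair, and KPNA6 at 192, 177 and 201 CPM against 211, 184 and 213 CPM, likewise higher in each pair.

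These 3 importin alphas had log2 fold changes of 0.11 ± 0.05, 0.1 ± 0.05 and 0.09 ± 0.045 (SE) in the fit with the block. Their unadjusted p were 0.0336, 0.0397 and 0.0407, and their adjusted p 0.207, 0.224 and 0.226 by edgeR. Without the block, the unadjusted p were 0.154, 0.17 and 0.264. KPNA2, the most abundant importin alpha per length, stood at 418, 369 and 440 CPM in LMB and at 438, 385 and 458 CPM in LMB+auxin. Each LMB+auxin value was above its same-numbered LMB value, and the spread between numbers was wider than these gaps. KPNA4 had an estimate of 0.07 and KPNA5 one of -0.01, and neither passed either unadjusted test between the groups. KPNA2 took 72% ± 0.627 (SD, n = 3) of importin alpha RNA per canonical length in LMB and 71.6% ± 1.03 (SD, n = 3) in LMB+auxin. Over all annotated exons its share was 43.8% and 43.3%.

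Import receptors of the importin beta family bind cargo directly or through an adaptor, and 8 of 11 had positive estimates. KPNB1, importin beta itself, stood at 919, 713 and 947 CPM in LMB and at 1015, 755 and 957 CPM in LMB+auxin. Replicate 2 was far below the others in both groups, while each LMB+auxin value was above that of its pair. The log2 fold change was 0.08 ± 0.13 (SE; adjusted p = 0.965 by edgeR) without the block and 0.08 ± 0.043 (SE; unadjusted p = 0.0605, adjusted p = 0.273) with it.

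IPO5 and IPO7 import ribosomal proteins and histones among other cargo. IPO5 stood at 867, 830 and 904 CPM in LMB and at 963, 886 and 939 CPM in LMB+auxin, and IPO7 at 747, 646 and 739 CPM against 835, 674 and 769 CPM. Both were higher in LMB+auxin in each pair, and the groups overlapped for both. With the block, IPO5 had a log2 fold change of 0.1 ± 0.042 (SE; unadjusted p = 0.0202, adjusted p = 0.162 by edgeR), and IPO7 had one of 0.09 ± 0.043 (SE; unadjusted p = 0.0313, adjusted p = 0.199). IPO8, a relative of IPO7, stood at 65.3, 68.8 and 66.2 CPM in LMB and at 74.1, 73.3 and 68.8 CPM in LMB+auxin. It was the only member whose groups did not overlap, and the highest LMB value lay just under the lowest of LMB+auxin. Its log2 fold change was 0.11 ± 0.051 (SE; unadjusted p = 0.0344, adjusted p = 0.209 by edgeR) with the block. Without the block, the unadjusted p of IPO5, IPO7 and IPO8 were 0.166, 0.329 and 0.116.

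Lower estimates were those of TNPO2, IPO13 and IPO4. TNPO2, a transportin that imports RNA-binding proteins, stood at 44.7, 38.1 and 44.3 CPM in LMB and at 40.3, 35.9 and 39.6 CPM in LMB+auxin. It was lower in each pair, and with the block its log2 fold change was -0.13 ± 0.058 (SE; unadjusted p = 0.0224, adjusted p = 0.169 by edgeR). IPO13, which works in both directions, stood at 42, 38.8 and 38.9 CPM in LMB and at 33.2, 39.4 and 37.2 CPM in LMB+auxin. Replicate 1 alone carried most of the difference, and in replicate 2 LMB+auxin was the higher one. The block gave IPO13 a log2 fold change of -0.13 ± 0.06 (SE; unadjusted p = 0.0407, adjusted p = 0.226 by edgeR). Without the block the unadjusted p were 0.151 for TNPO2 and 0.166 for IPO13. By DESeq2 with the block they were 0.0923 and 0.165. IPO4, an importer of histones and ribosomal proteins, had an estimate of -0.05. TNPO1, the close relative of TNPO2, had one of 0.06, TNPO3, an importer of splicing factors, one of 0.08, IPO9 one of 0.05 and IPO11 one of 0.1, and none of these passed either unadjusted test.

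Ran cycle genes had estimates near 0, with a median log2 fold change of 0.0071, 4 of 7 positive and none past an unadjusted p of 0.05 in either fit. RAN stood at 1031, 921 and 1024 CPM in LMB and at 1044, 955 and 1051 CPM in LMB+auxin. The log2 fold change was 0.04 ± 0.073 (SE; adjusted p = 0.973 by edgeR), and the 95% interval ran from 0.914-fold to 1.15-fold. RCC1 stood at 225, 182 and 231 CPM in LMB and at 215, 192 and 235 CPM in LMB+auxin, with a log2 fold change of 0.01 ± 0.11 (SE; adjusted p = 0.994 by edgeR). Replicate 2 was lowest for RCC1 in both groups. The RCC1 locus carried the TIR1 cassette in both groups, so the effect of the insertion on its RNA was not measured.

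RANGAP1 stood at 216, 177 and 207 CPM in LMB and at 184, 185 and 203 CPM in LMB+auxin. The groups overlapped, and the direction differed between pairs. Its log2 fold change was -0.07 ± 0.085 (SE; adjusted p = 0.957 by edgeR). RANBP1, which helps RANGAP1 to act on Ran in the cytoplasm, had an estimate of 0.05 and was higher in LMB+auxin in 3 of 3 pairs, at 211, 193.7 and 214 CPM against 221, 194.5 and 223 CPM. RANBP3, a cofactor of CRM1 in the nucleus, had an estimate of -0.0046, NUTF2 one of 0.01, and RANGRF, a small Ran-binding protein, one of -0.04. SNUPN, the adaptor that brings spliceosomal snRNPs to importin beta, stood at 14 to 15.5 CPM in all 6 libraries with an estimate of 0.04.

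Levels between genes were compared per length, as CPM per kb of the canonical transcript averaged over the 6 libraries. RAN led with 406 ± 21.5 (SD, n = 6), followed by KPNA2 with 211 ± 17.6, XPO1 with 191 ± 15.9, RANBP1 with 172 ± 10.5 and CSE1L with 168 ± 13 (SD, n = 6 each). RAN lay above KPNA2 in every library, whereas the ranges of each of the next 4 genes overlapped with that of its neighbour. KPNA5 was lowest, at 3.02 ± 0.118 CPM per kb (SD, n = 6), and TNPO2 stood next above it with 8.02 ± 0.683. The highest level was 134 times the lowest. Of 31 neighbouring pairs in this order, 7 had ranges that did not overlap over the 6 libraries: RAN above KPNA2, IPO7 above RCC1, RANGAP1 above TNPO3, TNPO3 above XPOT, XPO5 above KPNA3, IPO8 above SNUPN, and TNPO2 above KPNA5.

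**Figure D3:**
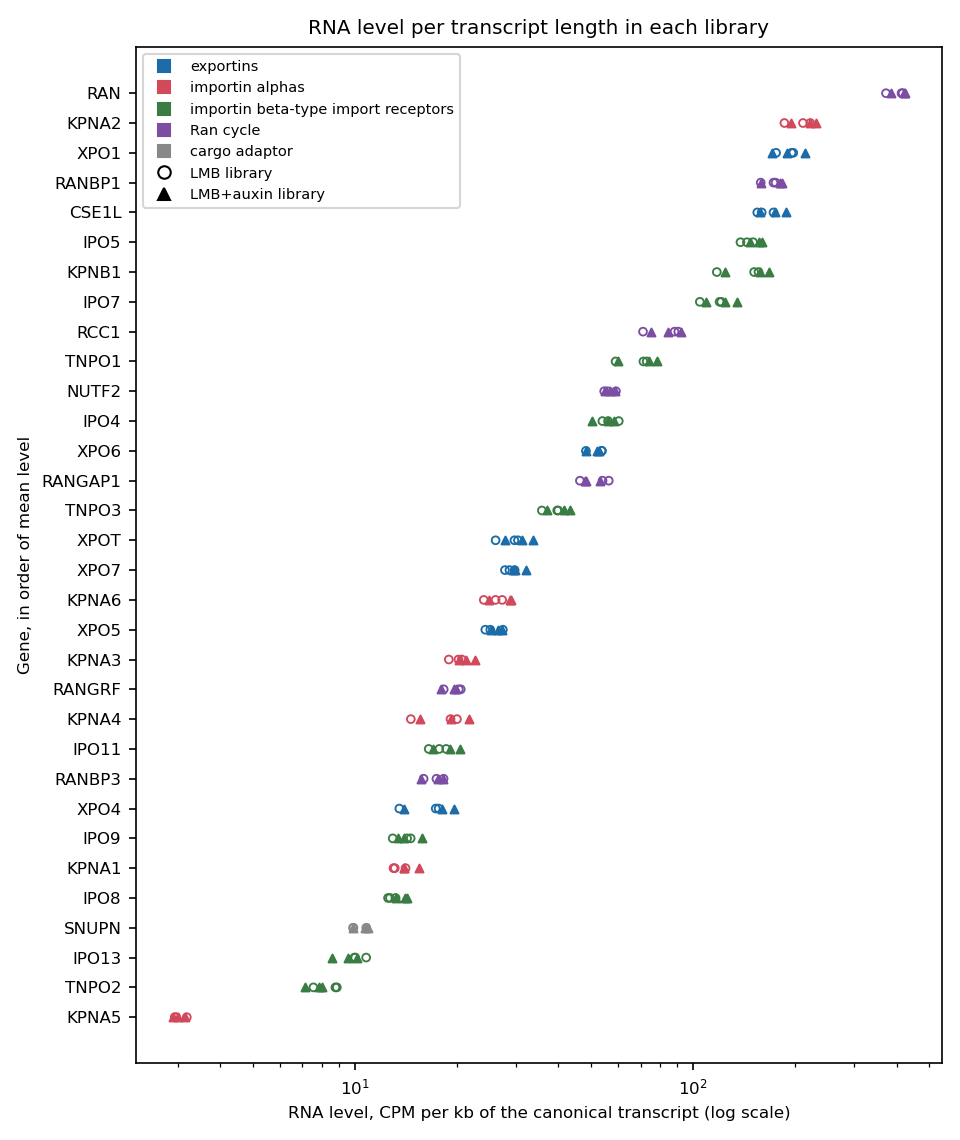
RNA level of each gene in each library as CPM per kb of the canonical transcript on a log axis, in order of mean level and coloured by role (open circles LMB, filled triangles LMB+auxin). RAN stands alone at the right end with a mean of 406 and KPNA5 alone at the left end with a mean of 3.02, and circles and triangles overlap for every gene but IPO8.

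The order depended on the length used. Over all annotated exons, a length chosen as an alternative after the values were seen, the level of XPO1 was 39.9 CPM per kb, since its exons cover 23843 bases and its canonical transcript 4988. The highest level was then 73.2 times the lowest, and 10 of 31 neighbouring pairs did not overlap.

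Replicate number separated the members in a test that kept the treatment group in the fit. An F test of the replicate terms by edgeR had an adjusted p under 0.05 for 20 of 32 members, where 33.7% of all genes did. By role these were 5 of 7 exportins, 3 of 6 importin alphas, 7 of 11 import receptors, 5 of 7 Ran cycle genes and 0 of 1 cargo adaptor. DESeq2's likelihood ratio test gave 14 members in place of 20, and the share of all genes in that test is not given here. Replicate 2 was lowest in both groups for 18 of 32 members (28.7% of all genes) and highest in both for 3 (26.9%).

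The deepest departures ran across roles. KPNA4, an importin alpha, stood at 172, 131 and 180 CPM in LMB and at 195, 140 and 173 CPM in LMB+auxin, and its fitted log2 difference of replicate 2 from replicate 1 was -0.44. Both values of replicate 2 lay below all of the other 4. The same difference was -0.43 for XPO4, -0.4 for KPNB1, -0.32 for TNPO1, -0.26 for IPO7, -0.24 for XPO1 and -0.24 for RCC1. TNPO1 stood at 606, 501 and 620 CPM in LMB and at 663, 511 and 630 CPM in LMB+auxin. IPO9 and IPO11 went the other way, with differences of 0.2 and 0.22. IPO9 stood at 148, 167 and 163 CPM in LMB and at 154, 180 and 160 CPM in LMB+auxin, so replicate 2 was its highest in both groups. The labels do not say what a replicate number stands for, and its part in the values above was not tested beyond the fit with the block.

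**Figure D4:**
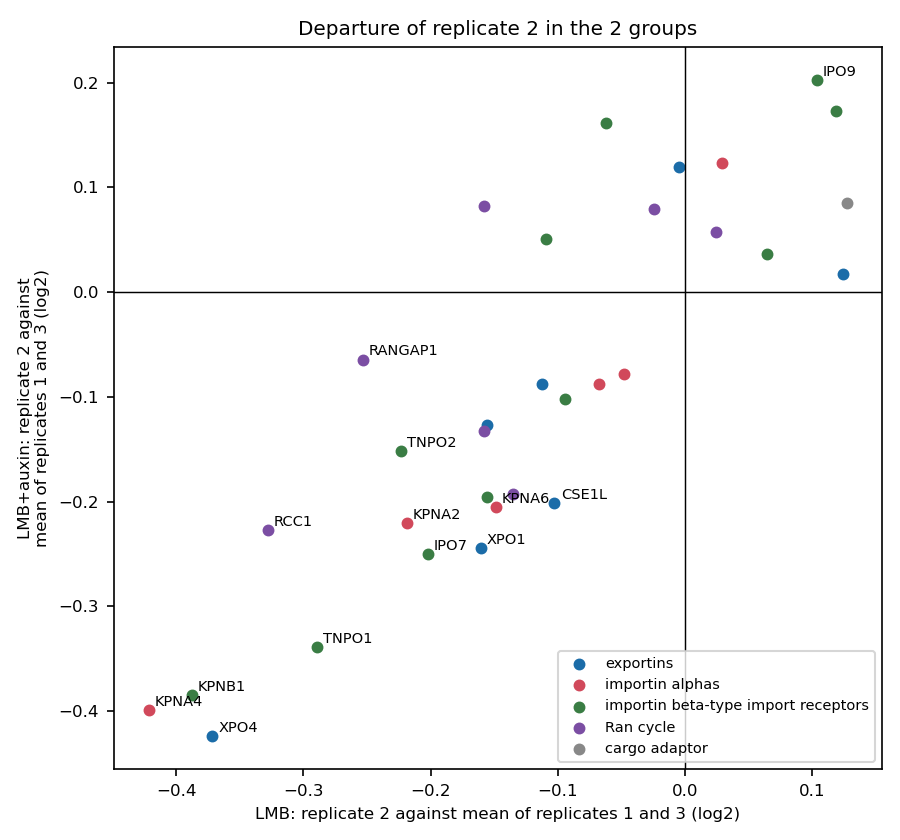
Departure of replicate 2 from the mean of replicates 1 and 3, on the log2 scale, in LMB (horizontal axis) and in LMB+auxin (vertical axis), 1 point for each gene, coloured by role, with names for genes past 0.2 in either group. KPNA4, XPO4, KPNB1 and TNPO1 lie far down the lower left, and IPO9 at the upper right.

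Other genes of the pathway were read from a list of 24: further Ran-binding proteins, carriers of RNA and of other cargo, the SUMO machinery of RANGAP1, and nucleoporins that bind karyopherins. Of these, 22 passed the CPM filter, RANBP3L and KPNA7 being below it, and 0 were called in either fit. None had an unadjusted p under 0.05 without the block, where 4.37% of all genes did. With it 4 were higher (8.1% of all genes) and 3 lower (11.8%) at that p. RANBP2, the nucleoporin at the cytoplasmic face that holds RANGAP1, stood at 559, 487 and 574 CPM in LMB and at 658, 520 and 584 CPM in LMB+auxin. It was higher in each pair, with a log2 fold change of 0.12 ± 0.043 (SE; unadjusted p = 0.00748, adjusted p = 0.0999 by edgeR) with the block. With the block, NMD3, the adaptor that links the large ribosomal subunit to CRM1, had 0.1 (adjusted p = 0.196 by edgeR). SENP2, a SUMO protease at the pore, had 0.11 (adjusted p = 0.211 by edgeR). NUP88, a partner of NUP214 in the pore's cytoplasmic filaments, had 0.1 (adjusted p = 0.211 by edgeR). Of the 22, only NMD3 and SENP2 had groups that did not overlap, against 11.5% of all genes.

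On the lower side were NUP62, RANBP6 and AKIRIN2. NUP62, a nucleoporin of the central channel, stood at 78.5, 69.1 and 84.5 CPM in LMB and at 70.9, 61.2 and 71 CPM in LMB+auxin, lower in each pair. The block gave NUP62 a log2 fold change of -0.19 ± 0.051 (SE; adjusted p = 0.0132 by edgeR), which is short of 1.3-fold. The adjusted p was 0.954 in the fit that left the block out. It was the only one of the 22 with an adjusted p under 0.05 with the block, a limit that 4.36% of all genes passed. DESeq2 with the block gave NUP62 an adjusted p of 0.174. RANBP6, a close relative of IPO5, had a log2 fold change of -0.12 (adjusted p = 0.145 with the block), and AKIRIN2, which brings proteasomes into the nucleus with IPO9, had -0.17 (adjusted p = 0.206 with the block by edgeR).

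Some members share exonic bases with another gene, and whether counting used strand was not given in the sources used here. RANGRF shares 79.9% of its exonic bases with SLC25A35 on the opposite strand, and their mean counts were 504 and 544. IPO4 shares 68.7% with a read-through gene on its own strand, ENSG00000259522, at mean counts of 6091 and 6482. The values of RANGRF and IPO4 are uncertain for this reason. Other members have smaller overlaps and share this uncertainty. KPNA1 shares 16.2% with WDR5B-DT on the opposite strand, at mean counts of 2989 and 1443. On their own strand, KPNA6 shares 8.88% with ENSG00000250135 (6111 and 841) and RCC1 6.22% with SNHG3 (6646 and 15212). SNUPN shares 15.4% with ENSG00000260235 and 16.2% with ENSG00000260269. RAN has 9 named pseudogenes, whose summed mean count was 0.568% of its own, and KPNA2 has 3, whose sum was 1.32%.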

How the data were processed

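Total RNA was sequenced in 6 libraries of DLD-1 AID-NeonGreen-TPR cells, 3 LMB and 3 LMB+auxin. The authors aligned reads to GRCh38 with STAR and counted them per Ensembl gene with featureCounts. The submitters' processing notes give versions 2.6.1c and 1.5.2, and the study's methods name earlier ones. The deposited values are raw counts per gene, not normalized, for 58051 genes, 28261903 to 35992425 per library. Symbols and coordinates came from GENCODE 44 (GRCh38) and matched 98.1% of identifiers.

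Genes above 1 CPM in at least 3 libraries (16974) were scaled by TMM and tested with edgeR 4.0.16 (robust quasi-likelihood test, LMB+auxin over LMB), with Benjamini-Hochberg adjustment over all genes. A call needed an adjusted p under 0.05 and at least 1.3-fold. The study's own analysis used DESeq2 with a 30% limit. Alternatives were the replicate block, DESeq2 1.42.0, limma-voom 3.58.1, other scalings and filters, and leaving out each library or pair. Deviations of same-numbered libraries from their group means correlated over all genes (r = 0.558, 0.724 and 0.307), so the numbers were taken to pair the samples. This pairing was read from the same counts. Unmatched numbers 1 and 3 also correlated, at 0.16 and 0.162, and the other unmatched values lay between -0.33 and -0.6. Deviations from a mean of 3 libraries sum to 0, which pushes unmatched values down. The pairing was least clear for number 3. The labels do not say whether replicates were separate cultures. The study's methods describe its RNA-seq replicates as 3 independent biological ones. Without the block, the p-values rest on the spread between libraries of a group. With it, they rest on the spread left after replicate number is fitted. All 32 members are named. Those with an unadjusted p under 0.05 in either fit have fuller statistics, as do XPO1, RAN, RANGAP1, KPNB1 and RCC1. Of other genes, TPR, RANBP2 and NUP62 have library values and an SE. The remaining listed genes under that p have a log2 fold change and an adjusted p alone. The members and lists were chosen with earlier results of these data known. The fits were also run on simulated counts, drawn with the same dispersion for every gene. The outcome is not given here, and no result above rests on it.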

Additional observations from a re-analysis of the deposited data

How the results depend on the processing

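In 448 recomputed log2 fold changes of the 32 members, 36 changed sign, 28 of them on leaving out a library, and 0 members were called under any alternative, the block without each pair included. The lowest adjusted p was 0.162 among the fits whose member values were recomputed singly, and 0.135 with the block without pair 1. Signs held in all of these recomputed values for 18 members; single members were not recomputed with the block and a pair left out.

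No member had an unadjusted p under 0.05 in the fit as reported; there were 10 such members with the replicate block, 6 by DESeq2 with it, and 4, 3 and 1 with the block but without pair 1, 2 or 3 (19.9%, 7.92%, 14.6%, 15.7% and 11.6% of all genes in these fits). There were 0 or 1 on leaving out a library (1 without LMB replicate 2). All genes called numbered 1 without the block, 201 with it, 11 by DESeq2, 30 by DESeq2 with the block, 0 with library size alone and 39 with no filter. The members' median ran from 0.0074 to 0.084 on leaving out a library. Members differing between replicate numbers numbered 20, 19 with library size alone and 14 by DESeq2's likelihood ratio test. The share of all genes is given for the 20 alone, at 33.7%. The block changed no call of a member.

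Log2 fold changes whose sign turned on leaving out a library ran from -0.073 to 0.094 for XPO1, -0.018 to 0.22 for XPO4, -0.066 to 0.02 for XPO6, -0.0471 to 0.197 for KPNA4, -0.038 to 0.031 for KPNA5, -0.0297 to 0.201 for KPNB1, -0.0195 to 0.17 for TNPO1, -0.089 to 0.011 for IPO4, -0.022 to 0.094 for IPO9, -0.00804 to 0.0801 for RAN, -0.056 to 0.058 for RANBP3, -0.084 to 0.084 for RCC1, -0.018 to 0.041 for NUTF2 and -0.083 to 0.0044 for RANGRF. KPNA5 turned to 0.00061 by DESeq2, 0.00028 by DESeq2 with the block and 0.00043 with DESeq2 size factors, and RANBP3 to 0.0022, 0.0021 and 0.0022. With library size alone RCC1 turned to -0.0031 and NUTF2 to -0.0054. The cause was not tested.

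The precision is that of 3 libraries per group: the median SE of a member's log2 fold change was 0.082 without the block and 0.046 with it.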
